A study of Nothobranchius furzeri with 168 samples.

Results

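The 100 genes described here were picked because their messenger RNA rose in the skin of young male turquoise killifish (Nothobranchius furzeri) of 2 strains, GRZ-D and MZM-0403, and at the oldest male age of each strain was close to its level at day 35. They were chosen from the 26739 genes of the deposited count table by L, the group mean of log2(CPM + 1) in male skin, where CPM scales each library's counts by its total. A gene qualified if its L changed by less than 0.7 at day 147 against day 35 in strain GRZ-D and at day 287 against day 35 in strain MZM-0403, which 16878 genes did. Of these, the 100 with the largest smaller rise of L at day 35 against day 21 in the 2 strains were kept. The early rise and the later flat course in GRZ-D and MZM-0403 skin are thus what the genes were chosen for, and they are described without a test. Skin of the remaining strain, MZCS-0403, took no part in the choice, nor did brain.

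RNA was sequenced from brain and skin of 84 fish, with 2 libraries a fish, in a cross-sectional design in which each fish was sampled at a single age. GRZ-D, a short-lived strain, was sampled as males at day 21 (8 fish), day 35 (6), day 49 (6), day 100 (7) and day 147 (6), and as females at day 49 (3). The MZM-0403 fish were 6 males of day 21, 5 of day 35 and 6 of day 287, with 5 females of day 147. MZCS-0403 was sampled as males at day 21 (6), day 39 (4), day 147 (3) and day 287 (2) and as females at day 147 (1), day 217 (5) and day 287 (5). MZM-0403 and MZCS-0403 live longer than GRZ-D. No allele, agent or rearing difference is given in the labels, and no sequencing batch.

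Killifish of temporary pools hatch, grow and become sexually mature within weeks. In that time the skin thickens, scales and dermal collagen are laid down, and males take on their colours, while mucus and barrier functions of the epidermis are established. The brain grows over the same weeks and goes on adding neurons in adult fish. The deposited identifiers carry no gene names, and 0 of the 26739 matched RefSeq's genes for the assembly NfurGRZ-RIMD1, so no role, position or sequence can be given for a member. The name skin maturation genes therefore stands for the rule alone. No list of skin or brain marker genes could be applied for the same reason.

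Library totals ran from 12376397 to 41254724 counts. Tissue labels were checked by correlating each library with the mean brain and skin profiles of day 21 fish. In 152 libraries the correlation was 0.897 to 0.989 with the labelled tissue and 0.339 to 0.587 with the other tissue. In the other 16 libraries, from 8 fish, it was 0.384 to 0.521 with the labelled tissue and 0.95 to 0.981 with the other. These fish were all 6 GRZ-D males of day 49, 1 GRZ-D female of day 49 and 1 MZCS-0403 female of day 287. They were left out of every test below. None of the groups that define the members holds such a fish.

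In the strains that defined them, the members differed widely in size of rise. The rise in L at day 35 against day 21 had a median of 0.69 in GRZ-D (0.55 to 1.94) and of 1.05 in MZM-0403 (0.56 to 2.85). The steps that had to stay under 0.7 had medians of -0.08 at day 147 against day 35 in GRZ-D and -0.17 at day 287 against day 35 in MZM-0403. Over the 22191 genes above 1 CPM in at least 3 libraries, the medians of these steps were 0.35 and 0.02. Members that were flat on this scale in GRZ-D skin thus lay below the course of all genes. The choice depended on the scale: of 100 genes chosen by the same rule on TMM-scaled CPM, 53 were also members here. The ranking is dense at its end: the last gene inside the list, Nfu_g_1_018596, had a smaller rise of 0.5539 and the first gene outside it, Nfu_g_1_008797, 0.5537. The steps between these ages share the day 35 or day 147 libraries with the rule. The rule fixed the end points within 0.7 and favoured a high day 35, so these steps are only described. GRZ-D skin at day 100 lay below day 35 by a median of -0.26, with 79 of 100 members within 0.7. Of the 22191 genes, 72.2% were within 0.7 in this step, and their median was 0.27. GRZ-D skin at day 147 then lay above day 100 by a median of 0.23, against 0.07 over the 22191 genes. MZM-0403 females at day 147 lay below MZM-0403 males at day 35 by a median of -0.41, against 0.03 over the 22191 genes. In this difference sex and age cannot be told apart, and the males of day 35 entered the rule.

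Most members were genes of low to moderate level. In MZCS-0403 skin at day 39, 15 members averaged under 1 CPM, 31 between 1 and 5, 39 between 5 and 50, and 15 at 50 CPM or more. The members together held 1.29% to 1.73% of all counts in those 4 libraries, against 0.777% to 0.960% in the 6 skin libraries of day 21. The most counted member in both groups was Nfu_g_1_023427, at a mean of 4585 CPM at day 39 and 3642 CPM at day 21. In brain the members held 0.291% to 0.465% of counts in the 4 MZCS-0403 libraries of day 39, against 0.168% to 0.186% in the 6 libraries of day 21. In bulk tissue, more cells of a type and more RNA per cell cannot be told apart.

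**Figure D1:**
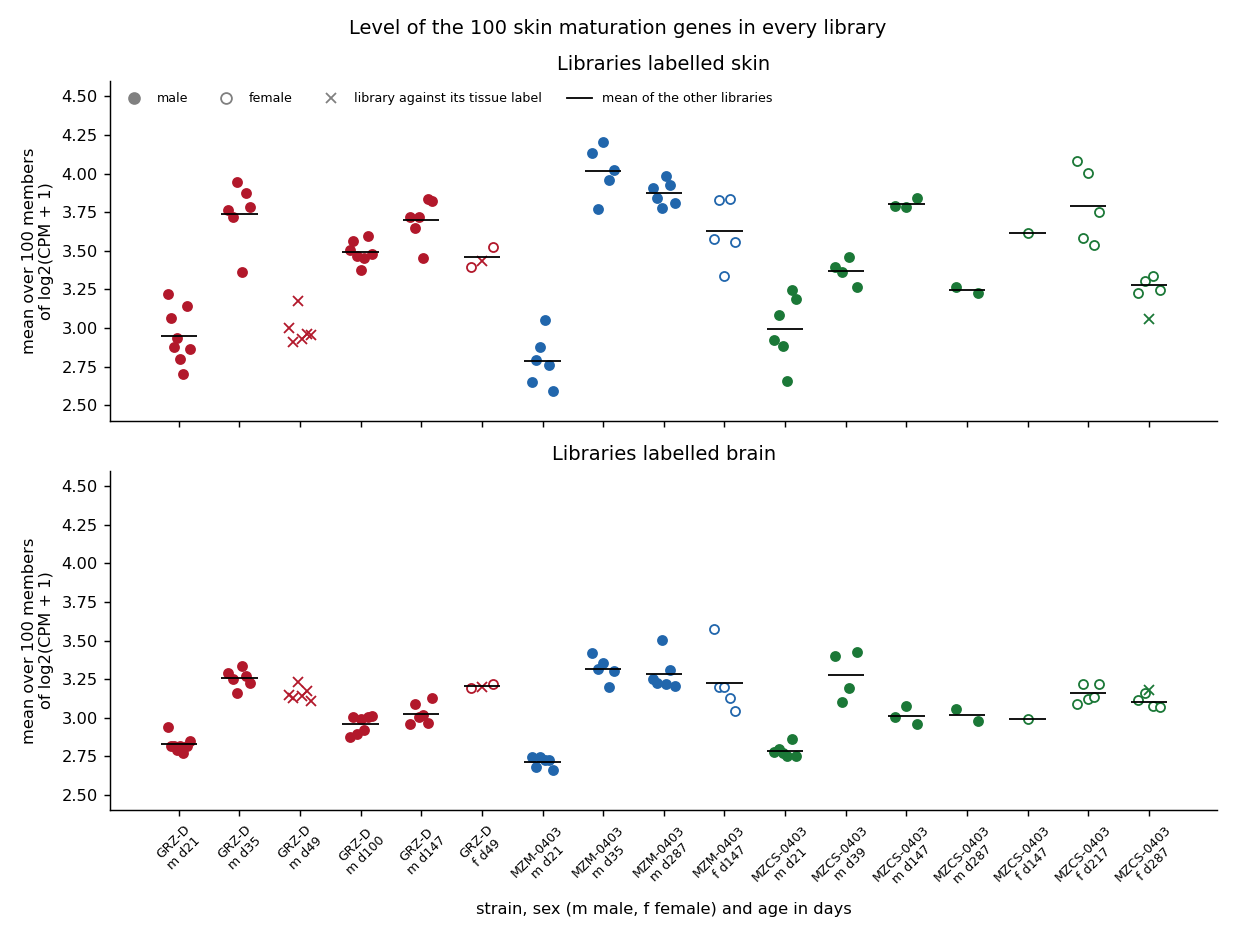
Mean over the 100 members of log2(CPM + 1) in each library labelled skin (top) and brain (bottom), by strain, sex and age in days. Filled circles are males, open circles females, crosses libraries that go against their tissue label and black lines the means of the other libraries. MZCS-0403 male skin ran from 2.66 to 3.25 at day 21, 3.26 to 3.46 at day 39, 3.79 to 3.84 at day 147 and 3.23 to 3.26 at day 287.

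The mean level of the members by library was not flat over the ages of MZCS-0403. The mean over members of log2(CPM + 1) in skin was 2.996 ± 0.218 in MZCS-0403 males at day 21 (SD, n = 6), 3.37 ± 0.0814 at day 39 (n = 4), 3.81 ± 0.0313 at day 147 (n = 3) and 3.25 ± 0.0249 at day 287 (n = 2). In MZM-0403 males it was 2.79 ± 0.166 at day 21 (n = 6), 4.02 ± 0.169 at day 35 (n = 5) and 3.88 ± 0.0781 at day 287 (n = 6). In GRZ-D males it was 2.95 ± 0.177 at day 21 (n = 8), 3.74 ± 0.202 at day 35 (n = 6), 3.49 ± 0.0729 at day 100 (n = 7) and 3.70 ± 0.141 at day 147 (n = 6). The MZCS-0403 libraries of successive ages did not overlap up to day 147, and both day 287 libraries lay below all 3 of day 147. In the same MZCS-0403 male skins the mean over all genes also rose up to day 147 and then fell. Its values were 2.38 (day 21), 2.46 (day 39), 2.60 (day 147) and 2.53 (day 287). Unlike the mean over members, it was higher on day 287 than on day 39. The part of this shift in the course of the members was not tested.

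The first question was whether the early rise is seen in a strain that did not choose the genes. In MZCS-0403 male skin at day 39 against day 21, 34 of the 100 members were higher and 18 lower at an adjusted p under 0.05 (edgeR quasi-likelihood test with Benjamini-Hochberg adjustment over all 23157 genes tested). Of all genes tested, 15.7% were higher and 16.4% lower. The members' share of higher genes was thus above that of all genes, while their share of lower genes was near it. The median log2 fold change was 0.31 over the members, with quartiles of -0.58 and 1.09, and -0.02 over all genes. All 4 libraries of day 39 lay above all 6 of day 21 in CPM for 33 members and below them for 8, against 12.6% and 5.80% of all genes tested. With library totals in place of TMM scaling the counts were 40 higher and 14 lower, against 20.1% and 10.5% of all genes, and the median of all genes moved to 0.14.

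On the scale of the rule itself, 45 members rose in MZCS-0403 skin by at least the smallest rise inside the list, a size reached by 16.9% of the 22191 genes above 1 CPM in at least 3 libraries. Of those 45 members, 26 then changed by less than 0.7 at both day 147 and day 287 against day 39. That full course, a rise and then 2 small steps, was thus seen in 26 of the 100 members and in 8.33% of the 22191 genes. The 26 come from 45 risers and the 8.33% from the 16.9% that rose so, and most of the members' excess lay in the rise. The full course is given as a description, because the day 39 libraries enter all its steps.

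On the scale of the rule, Nfu_g_1_005668 rose most in MZCS-0403 skin at day 39, by 2.60, against 2.54 for Nfu_g_1_009854. By the log2 fold change of the test Nfu_g_1_009854 rose most, and it was ranked second by the rule. Its levels in skin were 4.14, 4.32, 5.05 and 8.52 CPM at day 39, against 0.201, 0.127, 0.0839, 0.0766, 0 and 0.0347 CPM at day 21. Every library of day 39 stood far above every library of day 21, where the gene was close to undetected. The log2 fold change was 5.77 ± 0.82 (SE; edgeR adjusted p = 1.68e-07). In the strains that defined the members it was at 0 to 0.154 CPM in MZM-0403 skin at day 21 but already at 1.30 to 8.80 CPM in GRZ-D skin at day 21.

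Nfu_g_1_012783 was the next largest riser by log2 fold change at 5 CPM or more. It stood at 6.96, 8.61, 9.38 and 5.71 CPM in MZCS-0403 skin at day 39, against 0.642, 1.10, 1.13, 0.0766, 2.09 and 1.04 CPM at day 21. The groups did not overlap, and the log2 fold change was 2.77 ± 0.30 (SE; edgeR adjusted p = 9.97e-11). At day 21 its levels in MZM-0403 skin, 1.09 to 3.23 CPM, overlapped those in MZCS-0403, and those in GRZ-D skin, 4.27 to 6.98 CPM, lay above both, whereas the skins of day 35 and day 39 had 5.21 to 11 CPM in all 3 strains.

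The gene ranked first by the rule, Nfu_g_1_002033, did not pass the test in MZCS-0403 skin. It had 28.7, 31.6, 11.7 and 17.6 CPM at day 39, against 13, 17.6, 20.1, 8.35, 29.1 and 26.1 CPM at day 21. The 2 ages overlapped throughout, with a log2 fold change of 0.11 ± 0.47 (SE; edgeR adjusted p = 0.896), whose sign turned when any of 3 libraries was left out. In GRZ-D skin, which chose it, the same gene had 36.0 to 81.2 CPM at day 35 against 9.79 to 27.7 CPM at day 21.

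The members with the lowest fold changes in MZCS-0403 skin were Nfu_g_1_018923 and Nfu_g_1_011190, and both rested on a few high libraries of day 21. Nfu_g_1_018923 had 0.338, 1.97, 0.603 and 1.39 CPM at day 39, against 9.99, 32.6, 0.755, 0.919, 1.35 and 30.1 CPM at day 21, a log2 fold change of -3.56 ± 0.77 (SE; edgeR adjusted p = 0.000262). Nfu_g_1_011190 had 0.802, 1.5, 1.97 and 1.11 CPM at day 39, against 4.45, 18.3, 0.462, 0.460, 0.130 and 28.0 CPM at day 21, a log2 fold change of -2.74 ± 0.76 (SE; edgeR adjusted p = 0.00413). In both genes the ages overlapped, and replicates 1, 2 and 6 of day 21 carried the high values. Replicate 6 had the lowest correlation with the skin profile among the 6 libraries of day 21, 0.935 against 0.976 to 0.983, and the part of this in the result was not tested. Fitted on the MZCS-0403 libraries of these ages alone, Nfu_g_1_011190 lost its call, with a log2 fold change of -2.76 and an adjusted p of 0.124 by the same test.

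**Figure D2:**
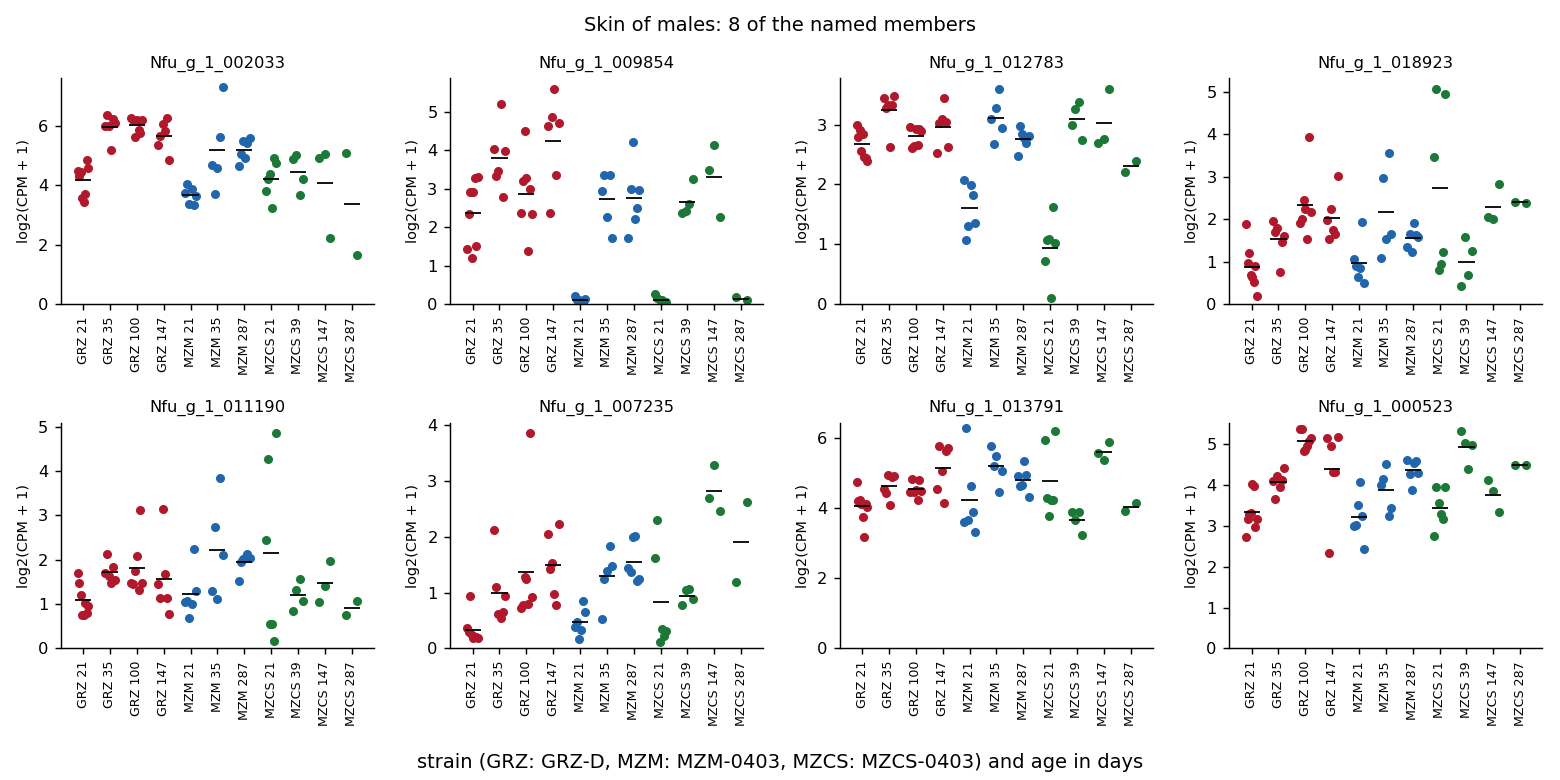
Log2(CPM + 1) of 8 named members in each male skin library, by strain and age in days, with black lines at the group means. Nfu_g_1_009854 and Nfu_g_1_012783 separate day 39 from day 21 in MZCS-0403, while Nfu_g_1_018923 and Nfu_g_1_011190 show 3 high libraries at day 21.

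The next comparisons asked whether the members hold their level in MZCS-0403 skin as well. At day 147 against day 39, 19 members were higher and 10 lower by the same test, while 18.5% of all genes were higher and 19.0% lower. The share of higher members was near that of all genes in this fit. Fitted on the libraries of these 2 ages alone, 31 of 99 members tested were higher, against 22.0% of all genes, and 12 were lower, against 24.8%. The median log2 fold change was 0.40 over the members and 0.11 over all genes. With library totals in place of TMM scaling, 27 members were higher and 6 lower, against 24.4% and 12.8% of all genes, and the median of all genes was 0.33. The count of lower members was 6 without replicate 1 or without replicate 6 of day 39, 4 without replicate 1 of day 147 and 4 with all 84 fish as labelled. No share of all genes is given for these fits. Members chosen on TMM-scaled CPM gave 2 lower, against the same 19.0% of all genes. The 3 libraries of day 147 held 12376397 to 21540987 counts, against 18233868 to 35918095 in the 4 of day 39.

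Among called members with at least 5 CPM in the higher group, Nfu_g_1_007235 and Nfu_g_1_013791 had the largest rises at day 147. Nfu_g_1_007235 had 5.49, 8.72 and 4.50 CPM at day 147, against 0.717, 1.06, 1.10 and 0.835 CPM at day 39, a log2 fold change of 2.54 ± 0.85 (SE; edgeR adjusted p = 0.0135). The groups did not overlap, but without replicate 3 of day 147 the adjusted p was 0.0656 with a log2 fold change of 2.18. Nfu_g_1_013791 had 46.1, 40.8 and 58.6 CPM at day 147, against 13.7, 11.6, 13.8 and 8.35 CPM at day 39, a log2 fold change of 1.83 ± 0.48 (SE; edgeR adjusted p = 0.00157). At day 287 this gene was back at 14.2 and 16.8 CPM.

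Nfu_g_1_000523 and Nfu_g_1_009601 had the largest falls. Nfu_g_1_000523 had 16.2, 13.4 and 9.05 CPM at day 147, against 39.2, 31.5, 20.1 and 30.2 CPM at day 39, with no overlap and a log2 fold change of -1.46 ± 0.40 (SE; edgeR adjusted p = 0.00276). Its early step, at day 39 against day 21, was a rise with a log2 fold change of 1.41 ± 0.32 (SE; edgeR adjusted p = 0.000493). Nfu_g_1_009601 had 6.54, 7.06 and 7.85 CPM at day 147, against 13.7, 16.7, 12.8 and 15.1 CPM at day 39, again with no overlap and a log2 fold change of -1.24 ± 0.37 (SE; edgeR adjusted p = 0.00626).

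At day 287 against day 39, with 2 fish at day 287, 1 member was higher and 8 lower, against 9.01% of all genes higher and 6.46% lower. The median log2 fold change was -0.28 over the members and -0.06 over all genes. The count of lower members was 4 without replicate 1 of day 287 and 1 without replicate 2. It was 13 with DESeq2, against 8.77% of all genes, and 17 of 98 members tested in a fit of the libraries of these 2 ages alone, against 12.7%, with 4 higher, against 14.5%. All 84 fish as labelled gave 5 lower and 0 higher, and no share of all genes is given for this fit or for those without 1 fish. The count of lower members thus fell without either fish of day 287 and moved both ways with the fit. The single higher call was lost without replicate 1 or 3 of day 39 and without either fish of day 287. Library totals gave 2 higher and 4 lower, against 11.6% and 4.11% of all genes. Members chosen on TMM-scaled CPM gave 2 higher, against the same 9.01% of all genes.

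Nfu_g_1_009854, the strongest early riser by log2 fold change, was at 0.137 and 0.0803 CPM in MZCS-0403 male skin at day 287, against 4.14 to 8.52 CPM at day 39. Its log2 fold change was -5.74 ± 1.26 (SE; edgeR adjusted p = 0.000837). Both males of day 287 lay within the range of the males of day 21, while the 3 males of day 147 had 10.3, 16.7 and 3.81 CPM. MZM-0403 skin at day 287 had 2.30 to 17.5 CPM of the same gene, with no library near 0.

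In skin of old MZCS-0403 females the share of lower members was above that of all genes. At day 287 against day 217 (4 and 5 females), 54 members were lower and 0 higher by the edgeR test, against 14.3% of all genes lower and 15.5% higher. DESeq2 gave 63 lower and 0 higher, against 16.4% and 14.0% of all genes. At an unadjusted edgeR p under 0.05, 66 members were lower and 1 higher, for which no share of all genes was computed. The median log2 fold change was -0.95 over the members and -0.03 over all genes, and 8 members lay above 0. The mean over members of log2(CPM + 1) was 3.23, 3.30, 3.34 and 3.24 in the 4 females of day 287, against 4.08, 3.58, 4.01, 3.54 and 3.75 in the 5 of day 217. The groups did not overlap on this scale. Totals were alike, at 19343196 to 25667479 counts at day 287 and 19963567 to 26705412 at day 217. With library totals in place of TMM scaling, 33 members were lower and 1 higher, against 8.49% and 24.5% of all genes, and the median of all genes was 0.21. Of the 54 members, 22 (40.7%) were higher and 6 (11.1%) lower in male skin at day 39 against day 21, from other libraries. Of all genes lower in the old females, 29.1% were higher and 14.3% lower in that step.

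Nfu_g_1_009854 and Nfu_g_1_002713 were close to absent in skin of the old females. Nfu_g_1_009854 had 0.0781, 0.0390, 0.0867 and 0.310 CPM at day 287, against 8.77, 21.1, 18.6, 25 and 17.2 CPM at day 217, a log2 fold change of -7.47 ± 0.94 (SE; edgeR adjusted p = 9.38e-09). Nfu_g_1_002713 had 0.117, 0.195, 0.0434 and 0.0517 CPM at day 287, against 5.96, 11.8, 11.3, 15.7 and 10.4 CPM at day 217, a log2 fold change of -6.92 ± 0.85 (SE; edgeR adjusted p = 4.94e-09). The females of the 2 ages stood far apart in both genes. Whether the 2 genes share reads cannot be checked without their sequences. They were picked out in this comparison after their values had been seen.

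**Figure D3:**
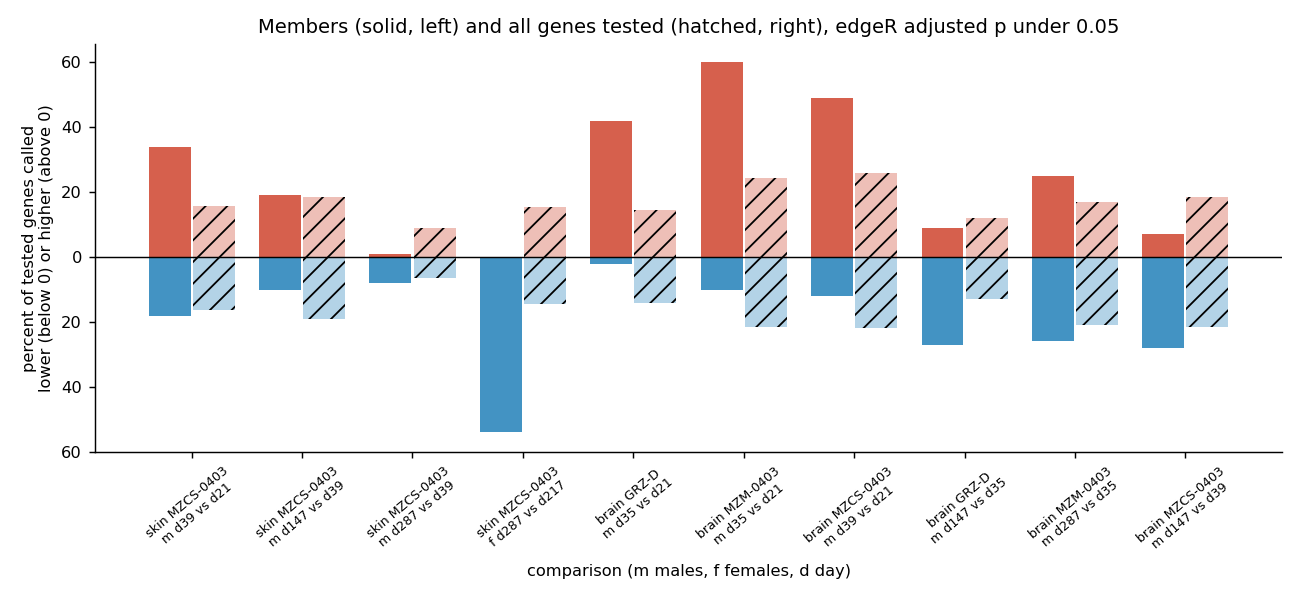
Percent of the 100 members (solid) and of all genes tested (hatched) called higher (above 0) or lower (below 0) by edgeR at an adjusted p under 0.05, for each comparison of ages. The members exceed all genes among higher calls in the early step of MZCS-0403 skin (34 members against 15.7%). They also do so in early GRZ-D, MZM-0403 and MZCS-0403 brain (42, 60 and 49 members against 14.5%, 24.4% and 25.8%). Among lower calls they exceed all genes in old MZCS-0403 female skin (54 members against 14.3%). In the later brain steps, lower calls are 27 against 12.8% in GRZ-D, 26 against 20.8% in MZM-0403 and 28 against 21.5% in MZCS-0403. Higher calls there are 25 against 17.1% in MZM-0403, where the balance turned with the choice of members. In MZCS-0403 skin, higher calls at day 147 (19 against 18.5%) lie slightly above all genes. So do lower calls there at day 39 (18 against 16.4%) and day 287 (8 against 6.46%).

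Brain gave a second set of libraries that the rule did not use, although the GRZ-D and MZM-0403 brains come from the same fish whose skin chose the genes. In brain at day 35 against day 21, 42 members were higher and 2 lower in GRZ-D, against 14.5% of all 23016 genes tested higher and 14.2% lower. In MZM-0403 brain at day 35 against day 21, 60 members were higher and 10 lower, against 24.4% and 21.4% of all genes. In MZCS-0403 brain at day 39 against day 21, 49 members were higher and 12 lower, against 25.8% and 22.0% of all genes. In each strain the share of higher members was above that of all genes and the share of lower members below it. Fits of only the libraries compared gave 1 lower of 91 members in GRZ-D, against 21.9% of all genes, and 5 of 94 in MZM-0403, against 18.7%. Members chosen on TMM-scaled CPM gave 5 lower in GRZ-D, against the same 14.2% of all genes. All 84 fish as labelled gave 0 lower in GRZ-D and 5 in MZM-0403, for which no share of all genes is given. The median log2 fold change of the members was 0.51 in GRZ-D, 0.76 in MZM-0403 and 0.66 in MZCS-0403, against 0.02, 0.04 and 0.07 over all genes.

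The mean over members of log2(CPM + 1) in brain was 3.16 to 3.34 in GRZ-D at day 35, against 2.77 to 2.94 at day 21. It was 3.20 to 3.42 in MZM-0403 at day 35, against 2.66 to 2.75 at day 21. It was 3.10 to 3.43 in MZCS-0403 at day 39, against 2.75 to 2.86 at day 21. No library of the later age reached down to a library of day 21 in any of the 3 strains. All 76 brain libraries used correlated at 0.587 or less with the skin profile. In MZM-0403 brain this correlation was 0.400 to 0.465 at day 35, against 0.381 to 0.399 at day 21. In GRZ-D brain it was 0.424 to 0.470 at day 35, against 0.385 to 0.434 at day 21. In MZCS-0403 brain it was 0.396 to 0.468 at day 39, against 0.397 to 0.418 at day 21. The part of these shifts in the members' rise in brain was not tested.

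Of the 100 members, 35 were called higher in the brains of all 3 strains, 10 in 2 strains, 26 in 1 strain and 29 in none, while 6.71% of all genes were higher in all 3, 11.2% in 2, 22.3% in 1 and 59.8% in none. Lower calls were made in 2 strains for 8 members, in 1 strain for 8 and in 3 strains for none, against 10.7%, 20.1% and 5.33% of all genes. Opposite calls between strains were made for 2 members, Nfu_g_1_003309 and Nfu_g_1_009518, and for 4.99% of all genes. Nfu_g_1_009518 had a log2 fold change of -0.75 ± 0.29 in GRZ-D brain, 1.41 ± 0.31 in MZM-0403 brain and 1.55 ± 0.33 in MZCS-0403 brain (SE; edgeR adjusted p = 0.0403, 0.000137 and 7.55e-05). Both were chosen for naming because of these calls. Of the 35 members higher in all 3 brains, 23 (65.7%) were also called higher in MZCS-0403 skin at day 39 against day 21, as were 41.3% of the 1538 genes of all that were higher in the 3 brains and tested in skin.

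The 2 members with the largest rises among those called higher in the brains of most strains, Nfu_g_1_009854 and Nfu_g_1_002713, were at or near 0 in the other brain groups. Both were called in MZM-0403 and MZCS-0403 and in neither direction in GRZ-D. Nfu_g_1_009854 had 4 to 20 counts in each of the 4 MZCS-0403 brains of day 39, 39 in all, against 0 counts in all 6 brains of day 21. This made it at least 3.23-fold higher, taking a floor of 3 counts a library at day 21. In MZM-0403 brain it had 97 counts in 5 libraries at day 35, of which 81 were in replicate 13, against 0 counts in 6 libraries at day 21, which is at least 4.51-fold higher. In GRZ-D brain it had 1 count in 6 libraries at day 35 and 4 counts in 8 libraries at day 21.

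Nfu_g_1_002713 had 33 counts in the 4 MZCS-0403 brains of day 39 against 1 count in the 6 brains of day 21, a ratio of 51.5 per count sequenced (exact 95% interval 8.61 to 2093, counting error only). One of the 4 brains of day 39, replicate 1, had 0 counts of it. The levels of both genes in brain stayed under 1 CPM in every MZCS-0403 male library, and in the skins of the same 4 fish they were 4.14 to 8.52 and 2.25 to 5.01 CPM.

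Nfu_g_1_011147 and Nfu_g_1_007868 were lower at the early step in MZM-0403 and MZCS-0403 brain, although both rose in the GRZ-D and MZM-0403 skins that chose them. Nfu_g_1_011147 had 5.27, 3.77, 5.07 and 4.01 CPM in MZCS-0403 brain at day 39, against 9.32, 10.4, 12.6, 10.5, 9.19 and 7.23 CPM at day 21, a log2 fold change of -1.13 ± 0.18 (SE; edgeR adjusted p = 2.65e-07). Nfu_g_1_007868 had 2.97, 2.11, 3.48 and 2.80 CPM at day 39, against 5.09, 6.08, 7.31, 6.18, 4.09 and 5.87 CPM at day 21, a log2 fold change of -1.03 ± 0.21 (SE; edgeR adjusted p = 3.18e-05). Neither gene's ages overlapped. MZCS-0403 skin fell too, with log2 fold changes of -2.32 ± 0.46 (SE; edgeR adjusted p = 7.21e-05) for Nfu_g_1_011147 and -1.62 ± 0.46 (SE; edgeR adjusted p = 0.00488) for Nfu_g_1_007868. In GRZ-D brain the early log2 fold changes were -0.08 ± 0.14 and -0.04 ± 0.17 for these genes, with edgeR adjusted p of 0.719 and 0.889.

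The later steps in brain held fewer higher members than the early ones. At day 147 against day 35 in GRZ-D brain, 9 members were higher and 27 lower, against 12.1% and 12.8% of all genes. At day 287 against day 35 in MZM-0403 brain, 25 were higher and 26 lower, against 17.1% and 20.8% of all genes. At day 147 against day 39 in MZCS-0403 brain, 7 were higher and 28 lower, against 18.6% and 21.5% of all genes. The members' median log2 fold changes were -0.16, 0.03 and -0.21. As differences of mean log2(CPM + 1), their medians were -0.12, 0.05 and -0.18. Over the 22191 genes above 1 CPM in at least 3 libraries, those medians were -0.0024, 0.00025 and -0.022. The count of higher members in MZCS-0403 was 13 without replicate 1 of day 39, 3 without replicate 3 and 2 without replicate 4. It was 1 without replicate 3 of day 147. No share of all genes is given for these fits, so the moves cannot be set against all genes. Fits of only the libraries compared gave 15 higher and 36 lower of 93 members in GRZ-D (23.0% and 22.0% of all genes). They gave 12 higher and 17 lower of 94 members in MZM-0403 (12% and 13.1%), and 1 higher and 15 lower of 96 in MZCS-0403 (9% and 12%). Members chosen on TMM-scaled CPM gave 38 higher and 14 lower in MZM-0403, against the same 17.1% and 20.8% of all genes. The balance there thus turned with the choice of members. In all 3 strains together, 12 members were lower and 2 higher at the later age, against 3.32% and 3.69% of all genes.

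Nfu_g_1_011147 and Nfu_g_1_007868 were among those 12. In GRZ-D brain at day 147 against day 35 their log2 fold changes were -1.42 ± 0.16 and -1.61 ± 0.18 (SE; edgeR adjusted p = 4.46e-11 and 2.19e-10). In MZM-0403 brain at day 287 against day 35 they were -0.80 ± 0.16 and -0.76 ± 0.19 (SE; edgeR adjusted p = 8.60e-05 and 0.00140). In MZCS-0403 brain at day 147 against day 39 they were -0.81 ± 0.21 and -1.34 ± 0.26 (SE; edgeR adjusted p = 0.00153 and 2.33e-05). Nfu_g_1_002033, the first gene of the rule, took another course: in GRZ-D brain it had 22.5 to 39.0 CPM at day 21, 60.9 to 80.6 CPM at day 35 and 97.1 to 156 CPM at day 147. In MZM-0403 brain it had 22.0 to 40.4 CPM at day 21, 73.2 to 108 CPM at day 35 and 127 to 207 CPM at day 287. The ages did not overlap in either strain. Its later log2 fold changes were 0.67 ± 0.23 in GRZ-D and 0.81 ± 0.24 in MZM-0403 (SE; edgeR adjusted p = 0.0249 and 0.00640).

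The early changes of skin and brain were then set against each other in MZCS-0403 males, in which both tissues of the same 10 fish were measured. Of the 34 members higher in skin at day 39 against day 21, 29 were higher in brain too, which is 85.3% of the skin list and 59.2% of the 49 in brain, and 0 were lower in brain. Of all genes higher in skin, 55.2% were higher in brain and 6.41% lower, and the shared genes were 33.6% of those higher in brain. Of the 18 lower in skin, 10 were lower in brain, which is 55.6% of the skin list and 83.3% of the 12 in brain, and 3 were higher in brain. Of all genes lower in skin, 43.9% were lower in brain and 11.7% higher, and the shared genes were 32.7% of those lower in brain. The log2 fold changes in the 2 tissues had a Pearson correlation of 0.667 over the 100 members and of 0.242 over the 22212 genes tested in both, a description over genes measured in the same fish. The age change of skin minus that of brain was tested as an interaction. It was called below 0 for 16 members and above 0 for 1, against 9.65% and 5.24% of the 22559 genes tested, with a median of -0.41 over the members and -0.12 over all genes. With library totals, 10 members were below 0 and 1 above, against 5.96% and 6.96% of all genes. The median of all genes was then 0.04.

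**Figure D4:**
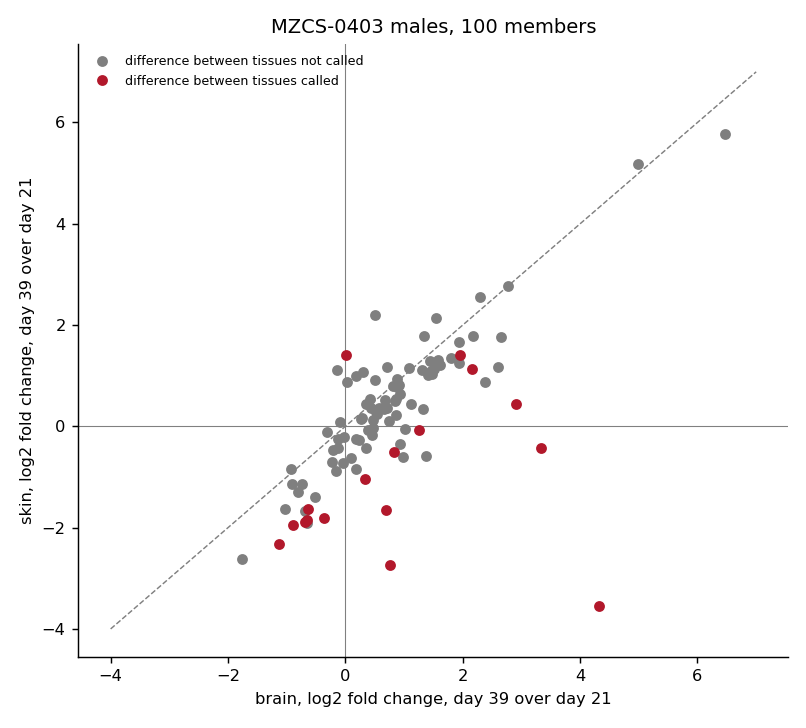
Log2 fold change of each of the 100 members at day 39 over day 21 in MZCS-0403 males, in brain (horizontal) and in skin (vertical), with a dashed line of equal change. Red points are the 17 members whose change differed between the tissues by edgeR at an adjusted p under 0.05, of which 16 lie below the line.

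The members were not higher in skin than in brain as a rule. In MZCS-0403 males at day 39, 48 members were higher in skin than in brain and 27 lower, against 34.4% and 37.9% of all genes. This split depends on scaling between unlike tissues: with library totals, 36 members were higher and 47 lower, against 20% and 58.6% of all genes. Under both scalings the share of higher members was above that of all genes and the share of lower members below it. The median of all genes moved to -0.94 with library totals, against -0.10 with TMM scaling. Against those medians of all genes, the members' medians were -0.55 with library totals and 0.27 with TMM scaling, higher than all genes under both.

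Nfu_g_1_016316 had the largest excess in skin, at 616 to 811 CPM in the 4 skins of day 39 against 1.88 to 9.05 CPM in the brains of the same fish, a log2 fold change of 8.13 ± 0.48 (SE; edgeR adjusted p = 3.29e-14). It also rose early in MZCS-0403 skin, with 616 to 811 CPM at day 39 against 150 to 307 CPM at day 21, a log2 fold change of 1.24 ± 0.35 (SE; edgeR adjusted p = 0.00451). Nfu_g_1_005553 had 19.1 to 37.8 CPM in skin against 0.151 to 0.631 CPM in brain, a log2 fold change of 6.87 ± 0.49 (SE; edgeR adjusted p = 1.56e-12). At the other end, Nfu_g_1_021244 had 3.78 to 4.94 CPM in skin against 192 to 288 CPM in brain, a log2 fold change of -4.99 ± 0.25 (SE; edgeR adjusted p = 1.18e-15). Nfu_g_1_011190 had 0.802 to 1.97 CPM in skin against 47.0 to 76.4 CPM in brain, a log2 fold change of -4.62 ± 0.89 (SE; edgeR adjusted p = 5.18e-05). In brain Nfu_g_1_011190 rose early in all 3 strains, by log2 fold changes of 0.99 ± 0.13 in GRZ-D, 0.65 ± 0.14 in MZM-0403 and 0.76 ± 0.15 in MZCS-0403 (SE; edgeR adjusted p = 2.18e-08, 0.000160 and 4.15e-05).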

How the data were processed

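RNA was extracted with the RNeasy Mini kit and made into libraries with the TruSeq RNA v2 kit, per the labels. The deposited table holds raw counts per gene, which the authors did not normalise. The submitters' processing notes name bcl2fastq 1.8.4, STAR 2.5.1b and featureCounts 1.5.0. The genome build, the annotation and the strand setting are not given in the sources used here, so reads of overlapping or near-identical genes cannot be told apart. All 168 columns could be tied to a sample by name. No library held a count of 752 of the genes.

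CPM were computed from column totals. Tests were run in R 4.3.3 with edgeR 4.0.16: filterByExpr at its minimum count of 10, TMM scaling and a robust quasi-likelihood fit per tissue with 1 mean for each of 16 groups (76 libraries; 23157 genes in skin, 23016 in brain). MZCS-0403 skin was compared with brain in a fit of 30 male libraries and 22559 genes. All 100 members passed each filter. The test is 2-sided, with Benjamini-Hochberg adjustment over all genes of a comparison and a threshold of 0.05. SE is the size of a log2 fold change divided by the square root of F. Totals of 12376397 to 41254724 counts leave few counts for genes under 1 CPM. Intervals and floors cover counting error only. Simulated counts with 200 genes changed were tried for MZCS-0403 skin at day 39 against day 21 only. The outcome is not given here and does not bear on the other comparisons. Fits that leave out a library keep the dispersion trend of the full fit.

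Members, lists and tests were chosen with earlier results of these data known. Named genes were the first 2 by the rule, then up to 2 in each direction of a comparison. In MZCS-0403 skin at day 39 the risers were called members without overlap and with 5 CPM in the higher group. The members with the lowest log2 fold change there were taken without a condition on call or CPM. At day 147 and in skin against brain they were called members with 5 CPM in the higher group. In brain they were called members ranked by the smallest early change in most strains, without a CPM limit. The listed pathways and cell-type markers use symbols and could not be applied. Labels do not say whether fish of a group shared a tank or clutch, so p-values measure the spread between these fish. Replicate numbers name different fish at each age and did not pair them. Brain and skin of 1 fish are paired, and a term for fish was an alternative, as were DESeq2 1.42.0, its size factors, library totals (added after seeing the data), no filter, all 84 fish as labelled, only the libraries compared, the replicate block, leaving out each fish, and members chosen on TMM-scaled CPM.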

Additional observations from a re-analysis of the deposited data

Results flagged for a closer look

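In MZCS-0403 males the change at day 39 against day 21 differed between skin and brain for 17 members by the edgeR interaction test, 16 of them lower in skin and 1 higher. Of the named genes, 6 were among them. They were named from comparisons that share MZCS-0403 libraries with this test, so their naming is not independent of it. Nfu_g_1_018923 and Nfu_g_1_011190 were named for the lowest log2 fold changes of the skin step itself. The difference, skin minus brain on the log2 scale, was -7.84 for Nfu_g_1_018923, which had 0.338 to 1.97 CPM in skin at day 39 against 0.755 to 32.6 CPM at day 21. In brain the same gene had 0, 0, 3.72 and 13.7 CPM at day 39 against 0.0444 to 0.611 CPM at day 21, so the rise there was carried by replicates 4 and 6. The difference was -3.49 for Nfu_g_1_011190, which rose in brain while 3 of 6 skins of day 21 were high. It was -3.75 for Nfu_g_1_007235, -2.35 for Nfu_g_1_013791 and -1.20 for Nfu_g_1_011147, and 1.40 for Nfu_g_1_000523.

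A total of 3 libraries stood apart from the rest of their group, of 56 groups of values checked, and chance gives about 1 such library in 20 groups. The mean over members of log2(CPM + 1) was 3.18 in replicate 3 of the GRZ-D males of day 49 labelled skin, all 6 of which correlated with the brain profile, and 2.91 to 2.997 in the other 5. It was 3.51 in replicate 3 of the MZM-0403 brains of day 287 and 3.21 to 3.31 in the other 5. Nfu_g_1_002713 had 1 count, 0.0285 CPM, in replicate 6 of the MZCS-0403 brains of day 21 and 0 in the other 5.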

How the results depend on the processing

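Counts of members called, higher and lower in each of 12 comparisons, were recomputed under each alternative. Those within 1.5 times the reported count are not repeated. Shares of all genes are not given for fits without 1 fish, with all 84 fish as labelled or with DESeq2's size factors. Leaving out 1 fish in turn kept the early counts of higher members at 30 to 36 in MZCS-0403 skin and at 39 to 44, 57 to 61 and 45 to 50 in GRZ-D, MZM-0403 and MZCS-0403 brain, and the count of lower members in female skin at 42 to 55. It gave 4 to 9 lower in skin at day 147 against day 39 (MZCS-0403), 0 to 1 higher and 1 to 8 lower at day 287, 0 to 2 higher in females, 1 to 2 lower in GRZ-D brain at day 35, 6 to 11 lower in MZM-0403 brain at day 35 (6 without replicate 12 of day 35), 1 to 13 higher in MZCS-0403 brain at day 147 and 1 to 2 for the interaction above 0 (2 without skin replicate 2 of day 21). Fits of only the libraries compared gave 31 higher in skin at day 147, 4 higher and 17 lower in skin at day 287, 1 lower in GRZ-D and 5 lower in MZM-0403 brain at day 35, 15 higher in GRZ-D brain at day 147, 12 higher and 17 lower in MZM-0403 brain at day 287, and 1 higher and 15 lower in MZCS-0403 brain at day 147; with 91 to 99 members left by the filter. All 84 fish as labelled gave 4 lower in skin at day 147, 0 higher and 5 lower in skin at day 287, 2 higher in females, 0 lower in GRZ-D and 5 lower in MZM-0403 brain at day 35, and 1 higher in MZCS-0403 brain at day 147. Members chosen on TMM-scaled CPM, of which 53 are also members here, gave 2 lower in skin at day 147, 2 higher in skin at day 287, 2 higher in females, 5 lower in GRZ-D brain at day 35, and 38 higher and 14 lower in MZM-0403 brain at day 287. DESeq2's size factors gave 6 lower in skin at day 147 and DESeq2 13 lower in skin at day 287. Library totals gave 6 lower in skin at day 147, 2 higher and 4 lower at day 287, and 1 higher and 33 lower in females. They also gave 47 lower in skin than brain (58.6% of all genes) and 10 for the interaction below 0 (5.96%). The cause of these differences was not tested.

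The replicate numbers do not pair the fish: in no comparison did every same-numbered pair deviate together with a correlation over 0.1, and in GRZ-D brain at day 35, the highest, 4 of 6 pairs did (-0.0738 to 0.215). The replicate block used fish with a shared number only and tested 91 to 99 members. Percents in brackets are the shares of all genes tested in the same fit. The block gave 25 higher (4.34%) and 6 lower (3.78%) in MZCS-0403 skin at day 39, and 28 lower (7.72%) in females. At day 35 it gave 1 lower (18.1%) in GRZ-D brain, and 23 higher (5.86%) and 1 lower (6.17%) in MZM-0403 brain. At day 147 it gave 14 higher (21.3%) in GRZ-D brain, and 0 higher (1.34%) and 4 lower (4%) in MZCS-0403 brain. In MZM-0403 brain at day 287 it gave 3 higher (1.47%) and 2 lower (1.19%). No block could be fitted for skin at day 287 against day 39, where 1 number is shared. A block for fish gave 48 higher and 31 lower in skin against brain, and 1 above and 15 below 0 for the interaction. No share of all genes is given for the block for fish, so these counts cannot be set against all genes. Of 257 values of named genes, 250 kept their side of the threshold, 4 lost their call and 3 changed sign. Nfu_g_1_002033 in MZCS-0403 skin at day 39, never called, changed sign without day 21 replicate 4 (-0.03), day 39 replicate 1 (-0.03) or day 39 replicate 3 (-0.10), within a range of -0.10 to 0.33 over all fish left out. Under the replicate block Nfu_g_1_018923 had a log2 fold change of -2.54 (edgeR adjusted p = 0.201) and Nfu_g_1_011190 of -1.19 (edgeR adjusted p = 0.551).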
